A study of Homo sapiens with 6 samples.

Results

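The genes of MHC class I antigen presentation were followed in propionate-treated LS 174T cells, which come from a human colorectal adenocarcinoma and serve as a goblet cell model. The set held 9 genes chosen by symbol, HLA-B, HLA-C, HLA-E, HLA-F, B2M, TAP1, TAP2, TAPBP and NLRC5, of 24462 gene symbols in the count tables. All 9 were found and all 9 had enough reads to be tested. The HLA genes, TAP1, TAP2 and TAPBP lie in the MHC region of chromosome 6, B2M lies on chromosome 15 and NLRC5 on chromosome 16. The compared groups were cells exposed for 4 h to propionate, a fatty acid that gut bacteria release, at 4 mM (3 libraries) and untreated control cells (3 libraries). All cells were unmodified LS 174T at passage 21 to 23, and both groups are thus cultures of a single tumour line. No label states that the 3 libraries of a group were grown apart, so p-values measure only how these libraries spread, which may be a technical spread.

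Class I molecules display short peptides from inside the cell to CD8 T cells and to receptors of natural killer cells. A heavy chain encoded by an HLA gene pairs with beta-2 microglobulin, the product of B2M, and is held in the endoplasmic reticulum by tapasin (TAPBP) beside the peptide pump formed by TAP1 and TAP2. NLRC5 is the transactivator of these genes: it joins RFX, CREB/ATF and NF-Y factors at a conserved promoter module with S, X and Y boxes. Interferons raise the same genes through transcription factors such as IRF1. Intestinal epithelial cells carry class I at their surface, and colorectal tumours often lose parts of this machinery.

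Library totals ran from 11645597 to 12746170 reads with propionate and from 11603288 to 11921005 reads in control. Levels are given as CPM, counts per 1000000 reads after TMM scaling, on which 3 reads equal 0.235 to 0.259 CPM depending on the library. All 9 colorectal epithelial markers passed the filter on low counts, with a summed level of 4811 to 5392 CPM with propionate and 4100 to 4958 CPM in control. Of these 9 genes 2 were called higher and 2 lower, where 17.2% and 17.0% of all tested genes were. When single libraries were left out, 0 to 3 were higher and 1 to 2 lower. The summed level of 6 goblet markers was 1139 to 1167 CPM with propionate and 1119 to 1188 CPM in control. The T cell genes CD3E and CD3D had no read in any library, and the leukocyte gene PTPRC had 3 reads over the propionate libraries and 0 over the controls. The summed level of 9 immune cell markers was 14.1 to 20.2 CPM with propionate and 17.8 to 25.8 CPM in control, and LYZ (lysozyme) held most of these reads. The summed level of 7 fibroblast and endothelial markers was 4.26 to 5.14 CPM with propionate and 1.17 to 1.92 CPM in control, nearly all from COL1A1 and PDGFRB, while DCN, VWF and CDH5 had no read. COL1A1, a collagen gene of fibroblasts, had 45, 55 and 37 reads with propionate, against 13, 10 and 8 reads in control, and was called higher (4.13-fold, edgeR adjusted p = 0.000219). COL1A1 passed the filter on low counts only through the propionate libraries, so its call leans on the group where it was high. Its part in the results on class I genes was not tested. In bulk RNA, fewer cells of a kind and less RNA per cell cannot be told apart.

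NLRC5 and HLA-E were higher with propionate, and the other 7 genes did not pass the test. This made 2 of 9 genes called higher (22.2%), where 17.2% of the 13605 tested genes were called higher, and 0 of 9 called lower, where 17.0% of tested genes were (quasi-likelihood test of edgeR, p adjusted over all tested genes by Benjamini-Hochberg, threshold 0.05). The share called higher was near that of all genes. At an unadjusted p under 0.05 the same count of 2 was found. That threshold passes at least the 34.2% of all tested genes that passed the adjusted one in either direction. DESeq2 and limma-voom also called 2 higher and 0 lower. The shares of all tested genes under these tools are not given here. The median log2 fold change of the 9 genes was 0.14, against -0.01 for all tested genes, and 6 of the 9 were above 0. The propionate libraries lay all above the controls for 4 genes, NLRC5, HLA-E, HLA-F and HLA-B, which is 44.4% of the set against 22.4% of tested genes. They lay all below for 1 gene, TAP2. In either direction, 55.6% of the set and 45.2% of tested genes had groups that did not overlap. These calls ignore the replicate number. A fit with that number as a block, which compares libraries of the same number, also called B2M, making 3 higher and 0 lower. In that fit 21.9% of tested genes were higher and 22.6% lower.

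**Figure D1:**
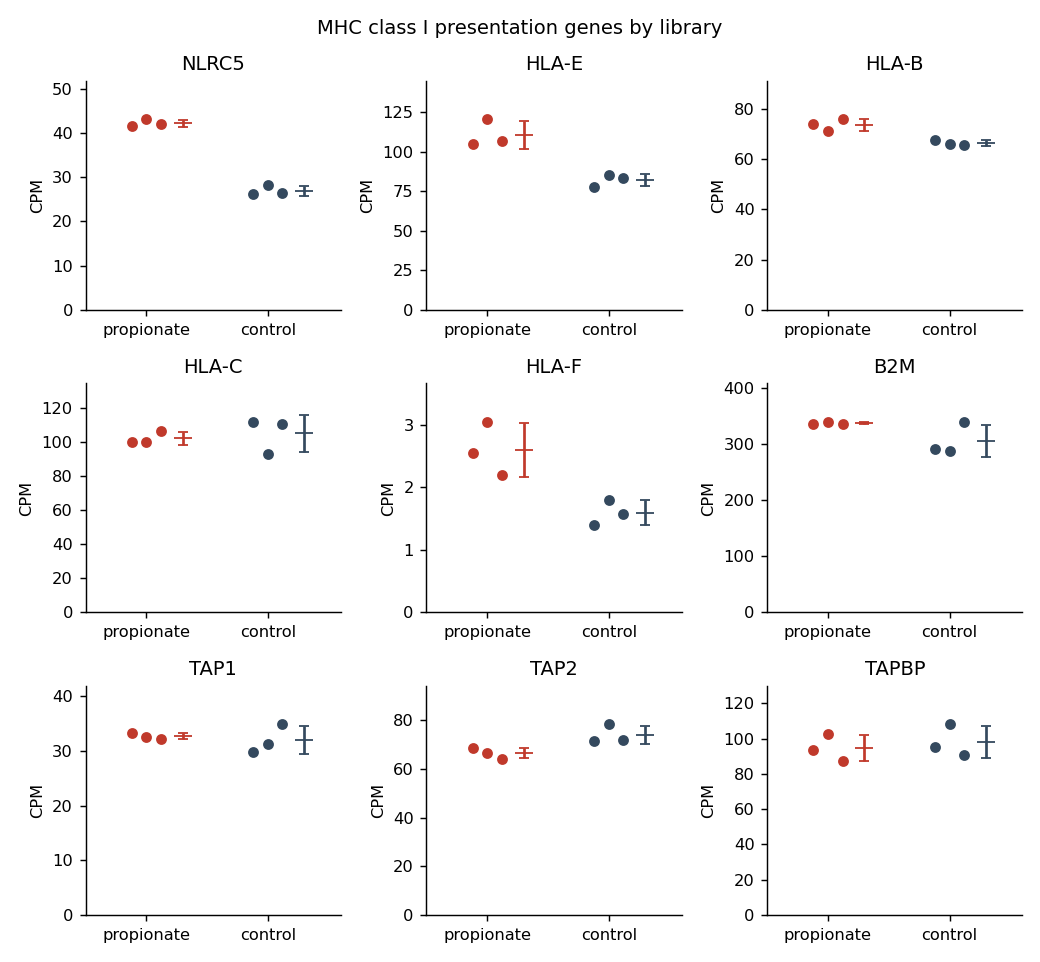
Level in CPM (y axis, linear, from 0) of each of the 9 genes in every library (points), with propionate left of control and the mean with its SD (n = 3) beside the points. NLRC5 sits at 41.5 to 43.1 CPM with propionate and 26.1 to 28.3 CPM in control, while TAP1 and TAPBP overlap between groups.

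NLRC5, the transactivator, had 536, 537 and 497 reads with propionate, against 299, 331 and 317 reads in control. In CPM these were 41.5, 43.1 and 42.0 with propionate, against 26.1, 28.3 and 26.4 in control. Every propionate library lay above every control library, and the spread within a group was small beside the gap. The level averaged 42.2 ± 0.811 CPM with propionate and 26.9 ± 1.19 CPM in control (SD, n = 3 each). NLRC5 was 1.57-fold higher (log2 fold change 0.65, SE 0.103, 95% interval 0.43 to 0.86, edgeR adjusted p = 7.20e-05). This call held in all 18 alternative fits, with an adjusted p of 6.10e-07 to 0.00165. Its smallest log2 change in the fits that remove each library's trend over transcript GC content was 0.50. The pseudogene AC023825.1 and the antisense gene AC023825.2 overlap NLRC5 on the opposite strand and have no counts of their own. The strand setting of the counts is not stated, so part of the NLRC5 reads may belong to them.

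HLA-E encodes a heavy chain that presents leader peptides of other class I chains to the CD94/NKG2 receptors of natural killer cells. It had 1353, 1503 and 1264 reads with propionate, against 892, 999 and 1003 reads in control, or 105, 121 and 107 CPM with propionate against 77.9, 85.4 and 83.5 CPM in control. The groups did not overlap, and HLA-E was the only heavy chain gene of the set to pass the test. It was 1.35-fold higher (110.8 ± 8.62 CPM with propionate and 82.3 ± 3.89 CPM in control, SD, n = 3 each; log2 fold change 0.43, 95% interval 0.24 to 0.61, edgeR adjusted p = 0.000889). The call held in 17 of 18 alternative fits and was missed when a change beyond 1.2-fold was required (adjusted p = 0.0541).

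HLA-B, a classical heavy chain that presents peptides to CD8 T cells, was at 73.8, 71.2 and 75.8 CPM with propionate, against 67.6, 66.1 and 65.4 CPM in control. The groups did not overlap, but the difference was small and did not pass (log2 fold change 0.15, 95% interval -0.03 to 0.33, edgeR adjusted p = 0.198). Removing the GC trend of each library gave a log2 fold change of -0.01. HLA-C, the classical heavy chain that is also a main ligand of killer cell immunoglobulin-like receptors, was at 100.1, 99.7 and 106 CPM with propionate, against 112, 92.7 and 110.4 CPM in control. These ranges overlapped, and the log2 fold change was -0.04 (95% interval -0.23 to 0.15, edgeR adjusted p = 0.771). HLA-F, a non-classical chain that can reach the surface without peptide, was sparse, with 33, 38 and 26 reads with propionate, against 16, 21 and 19 reads in control. Its groups did not overlap, and the 1.63-fold difference did not pass (log2 fold change 0.71, 95% interval -0.01 to 1.42, edgeR adjusted p = 0.118). HLA-F-AS1 overlaps HLA-F on the opposite strand and had 86, 82 and 48 reads with propionate, against 43, 54 and 59 reads in control. Whether reads were counted by strand is not stated in the sources used here, so reads of the pair cannot be told apart.

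The heavy chain genes are close copies of each other, and reads of one can be placed on another. HLA-B and HLA-C also overlap on the same strand, and HLA-B overlaps pseudogenes that have no counts of their own. The summed level of HLA-B, HLA-C, HLA-E and HLA-F, which is not affected by a misplacement among them, was 281, 295 and 291 CPM with propionate, against 259, 246 and 261 CPM in control. All 3 propionate sums lay above all 3 control sums, as did the libraries of 22.4% of single tested genes. The sums averaged 289 CPM with propionate and 255 CPM in control, of which HLA-E made 110.8 and 82.3 CPM. Most of the difference in the sum was thus that of HLA-E, and the sum does not show a rise of the other chains. HLA-E made up 37.3%, 41.0% and 36.7% of these reads with propionate, against 30.1%, 34.7% and 32.0% in control, again without overlap. HLA-H, a pseudogene close to the classical heavy chain genes in sequence, had 12, 15 and 13 reads with propionate, against 49, 33 and 34 reads in control, and was lower (log2 fold change -1.61, SE 0.358, edgeR adjusted p = 0.00172). HLA-G, a chain found mainly in placenta, had 6 reads over the propionate libraries and 11 over the controls and was not tested.

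B2M, the light chain shared by all class I molecules, was at 336, 339.5 and 335 CPM with propionate, against 292, 287 and 338 CPM in control. Control library 3 reached the propionate level, so the groups overlapped, and the difference did not pass (log2 fold change 0.14, SE 0.0818, 95% interval -0.03 to 0.31, edgeR adjusted p = 0.200). With the replicate number as a block in the fit, which compares libraries of the same number, the log2 fold change was again 0.14 (SE 0.0537) and passed (adjusted p = 0.0307). B2M differs from the others in base composition: its transcript had a GC content of 39.4%, where the other 8 had 49.1% to 60.0% and the median tested gene had 48.9%. After removal of the GC trend its log2 fold change was 0.29 (edgeR adjusted p = 0.00571), and it was 0.30 with the block added (adjusted p = 3.38e-05). GC removal in the following results is without the block unless the block is named.

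TAP1 and TAP2 form the pump that moves peptides into the endoplasmic reticulum. TAP1 was at 33.2, 32.4 and 32.2 CPM with propionate, against 29.8, 31.3 and 34.9 CPM in control, and the groups overlapped (log2 fold change 0.03, 95% interval -0.19 to 0.25, edgeR adjusted p = 0.867). PSMB8-AS1 and PSMB9 overlap TAP1 on the opposite strand, so part of the TAP1 reads may belong to them, and part of their reads to TAP1. TAP2 was at 68.4, 66.6 and 64.2 CPM with propionate, against 71.6, 78.4 and 71.8 CPM in control. Every propionate library lay below every control library, yet the difference did not pass (log2 fold change -0.15, 95% interval -0.34 to 0.03, edgeR adjusted p = 0.193). AL669918.1 overlaps TAP2 on the same strand and has no counts of its own, so part of the TAP2 reads may belong to it. TAPBP, the tapasin gene, was at 93.7, 102 and 87.5 CPM with propionate, against 95.5, 108 and 90.7 CPM in control (log2 fold change -0.05, 95% interval -0.25 to 0.14, edgeR adjusted p = 0.704). Within each numbered pair TAPBP was slightly lower with propionate, and the ranges overlapped. HLA-C and TAPBP passed as lower when the GC trend was removed and the block was used together (log2 fold changes -0.22 and -0.19, adjusted p = 0.00552 and 0.0143), but neither passed after GC removal alone (adjusted p = 0.0711 and 0.106).

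**Figure D2:**
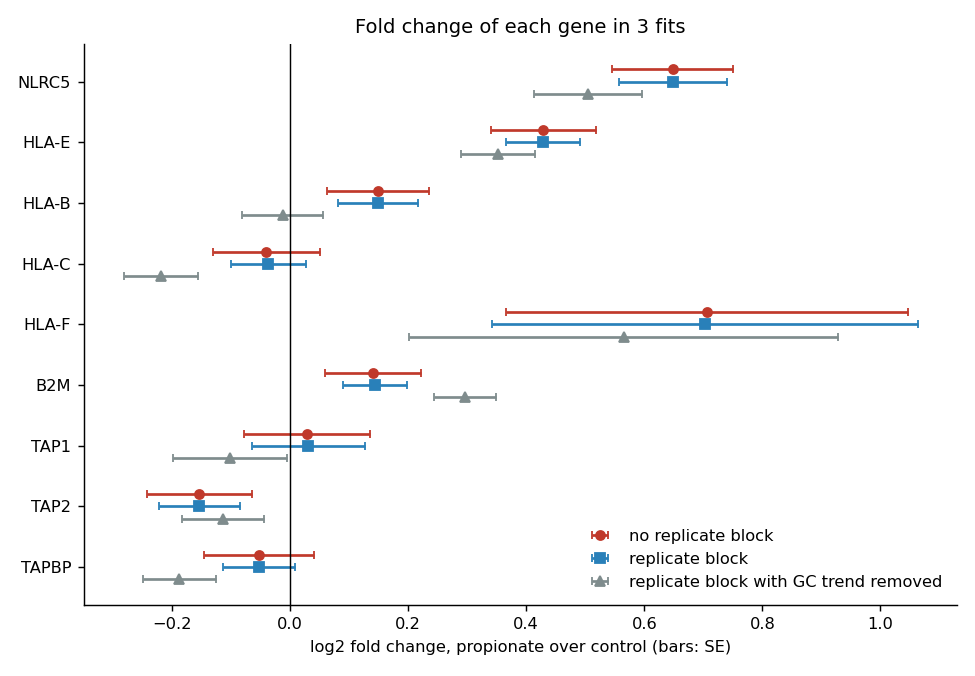
Log2 fold change of propionate over control (x axis) for each of the 9 genes, with the SE as a bar, in the fit without a replicate block (circles), with the block (squares) and with the block and the GC trend removed (triangles). NLRC5 and HLA-E stay right of 0 in each fit, HLA-B and TAP1 cross to the other side of 0 when the GC trend is removed, and B2M lies at 0.30 in the last fit and 0.14 in the others.

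Among the 9283 other genes averaging at least 10 CPM, those with the most similar pattern to NLRC5 over the 6 libraries were RNF114 (Pearson r = 0.999 of log2 CPM) and BZRAP1 (r = 0.998), at 103 and 29.6 CPM with propionate and 70.8 and 19.3 CPM in control. For HLA-E they were HADHA (r = 0.997) and TRAPPC5 (r = 0.997), at 149.7 and 87.0 CPM with propionate and 132 and 74.9 CPM in control. These values describe 6 libraries that fall into 2 groups.

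Promoter windows were searched for letters of the boxes that NLRC5's partner factors and the interferon factors are known to use. Printed are a classical heavy chain gene, the light chain gene and the neighbouring TAP1 and PSMB9, of which PSMB9 passed the test and HLA-B, B2M and TAP1 did not. The 250 bases before the gene start were taken from RefSeq (GRCh38.p14) for 7 of the 9 genes (not HLA-E and NLRC5). Capitals mark matches, on either strand, to CCAAT (the Y box), TGACG (the core of the X2 box), the interferon-stimulated response element (ISRE, searched as GAAA, any 2 bases and GAAA), an NF-kB site (GGGA, any base and TTCC) and the kB site of class I genes (GGGG and ATTCC joined, a motif added after the others). The HLA-B window (chr6:31357180-31357429, minus strand), the B2M window (chr15:44711267-44711516, plus strand), the TAP1 window (chr6:32853705-32853954, minus strand) and the PSMB9 window (chr6:32853942-32854191, plus strand) read 5′ to 3′ along each gene:
HLA-B: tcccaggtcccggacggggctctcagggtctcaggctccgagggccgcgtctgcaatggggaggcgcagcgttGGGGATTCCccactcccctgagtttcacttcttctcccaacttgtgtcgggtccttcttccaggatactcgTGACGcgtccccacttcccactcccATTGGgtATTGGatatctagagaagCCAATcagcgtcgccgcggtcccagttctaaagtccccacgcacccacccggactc
B2M: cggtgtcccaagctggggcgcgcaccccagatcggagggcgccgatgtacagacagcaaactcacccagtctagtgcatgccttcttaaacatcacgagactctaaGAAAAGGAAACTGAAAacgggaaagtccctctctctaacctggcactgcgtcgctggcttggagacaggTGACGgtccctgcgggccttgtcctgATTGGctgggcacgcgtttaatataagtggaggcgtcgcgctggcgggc
TAP1: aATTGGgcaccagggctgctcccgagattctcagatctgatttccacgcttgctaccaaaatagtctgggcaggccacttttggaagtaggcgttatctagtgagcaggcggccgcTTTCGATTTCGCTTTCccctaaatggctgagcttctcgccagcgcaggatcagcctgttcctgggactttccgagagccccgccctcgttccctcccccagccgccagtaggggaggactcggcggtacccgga
PSMB9: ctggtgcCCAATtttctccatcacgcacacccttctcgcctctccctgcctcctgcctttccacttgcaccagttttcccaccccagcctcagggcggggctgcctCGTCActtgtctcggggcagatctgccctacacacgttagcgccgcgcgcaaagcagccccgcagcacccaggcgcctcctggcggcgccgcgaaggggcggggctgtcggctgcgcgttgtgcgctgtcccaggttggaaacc

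The ISRE letters were found in 5 of the 7 windows (HLA-F, B2M, TAP1, TAP2 and TAPBP), where 3.02% of 35116 windows of the same length held them. In B2M, TAP1 and TAPBP 2 matches overlapped each other. CCAAT was found in 5 windows (HLA-B, HLA-C, HLA-F, B2M and TAP1) against 32.0% of all windows, and TGACG in 4 (HLA-B, HLA-C, B2M and TAP2) against 21.2%. The NF-kB letters as searched were in the TAPBP window (1.59% of all) and those of the class I kB site in the HLA-B window (0.253% of all). Other forms of the NF-kB site and of the ISRE were not searched, so a window without a match may still hold such a site. Letters close to the searched ISRE, TTTCAC and TTCT joined, stand unmarked in the HLA-B and HLA-C windows. An NF-kB example, GGGA and CTTTCC joined, stands unmarked in the TAP1 window and, on the opposite strand, in the B2M window. The HLA-B window held TGACG 106 bases and CCAAT letters 81, 74 and 56 bases before the start. Such matches are descriptions of letters and do not show binding in these cells.

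TAP1 and PSMB9, the gene of an immunoproteasome subunit, are read in opposite directions from starts 488 bases apart in these entries, and the 13 bases shared by their windows hold the CCAAT letters of both. PSMB9 had 220, 273 and 201 reads with propionate, against 113, 110 and 108 reads in control, or 17.0, 21.9 and 17.0 CPM with propionate against 9.87, 9.40 and 8.99 CPM in control. All propionate libraries were above all controls. PSMB9 was 1.98-fold higher (log2 fold change 0.99, SE 0.155, edgeR adjusted p = 6.96e-05, and 5.01e-08 to 0.000744 over 18 alternative fits), where TAP1 had a log2 fold change of 0.03. The difference between these changes was not tested. TAP1 and PSMB9 overlap on opposite strands, so part of the PSMB9 reads may belong to TAP1.

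The immunoproteasome exchanges 3 catalytic subunits of the constitutive proteasome for PSMB8, PSMB9 and PSMB10, which alters the peptides offered to TAP. Of 6 tested immunoproteasome and activator genes, 2 were higher and 0 lower, and of 5 constitutive genes 0 were higher and 1 was lower. Over all tested genes 17.2% were higher and 17.0% lower, and with so few genes these counts show no pattern of the lists. The PSMB8 gene was at 34.4, 34.2 and 37.5 CPM with propionate, against 43.9, 41.6 and 40.7 CPM in control. Its groups did not overlap, and the difference did not pass (log2 fold change -0.25, SE 0.101, edgeR adjusted p = 0.0617). It passed as lower with the replicate block (log2 fold change -0.25, adjusted p = 0.0226) and in both fits with the GC trend removed. PSMB10 was at 44.7 ± 3.07 CPM with propionate and 45.0 ± 3.93 CPM in control (SD, n = 3 each; log2 fold change -0.01, edgeR adjusted p = 0.964). Of the constitutive counterparts, PSMB5 was lower, at 242 ± 16.6 CPM with propionate and 309 ± 8.05 CPM in control (log2 fold change -0.35, edgeR adjusted p = 0.00213). PSMB6 and PSMB7 had log2 fold changes of -0.05 and -0.02 and were not called, although PSMB6 passed as lower with the block and the GC trend removed together (log2 fold change -0.11, adjusted p = 0.0465).

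The reads of each inducible subunit over those of the subunit it replaces need no scaling between libraries. For PSMB9 over PSMB6 the ratio was 0.0260, 0.0316 and 0.0278 with propionate, against 0.0142, 0.0129 and 0.0150 in control, a log2 difference of 1.02. All 3 propionate ratios exceeded all 3 control ratios, which gives the smallest p that 3 libraries against 3 allow (exact two-sided permutation test, p = 0.1, and 0.3 adjusted over the 3 pairs). For PSMB8 over PSMB5 the log2 difference was 0.10 (exact permutation p = 0.6) and for PSMB10 over PSMB7 it was 0.02 (exact permutation p = 0.8), with overlapping groups. PSME2, a subunit of the PA28 activator that interferon raises, was higher at 167 ± 18.4 CPM with propionate and 139 ± 15.7 CPM in control (SD, n = 3 each; log2 fold change 0.26, edgeR adjusted p = 0.0427). That call was lost without propionate library 1 or 2 or control library 1 or 3, and with the GC trend removed. Its partner PSME1 had a log2 fold change of 0.17 (edgeR adjusted p = 0.0977), and with the block it was 0.18 (adjusted p = 0.0122).

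**Figure D3:**
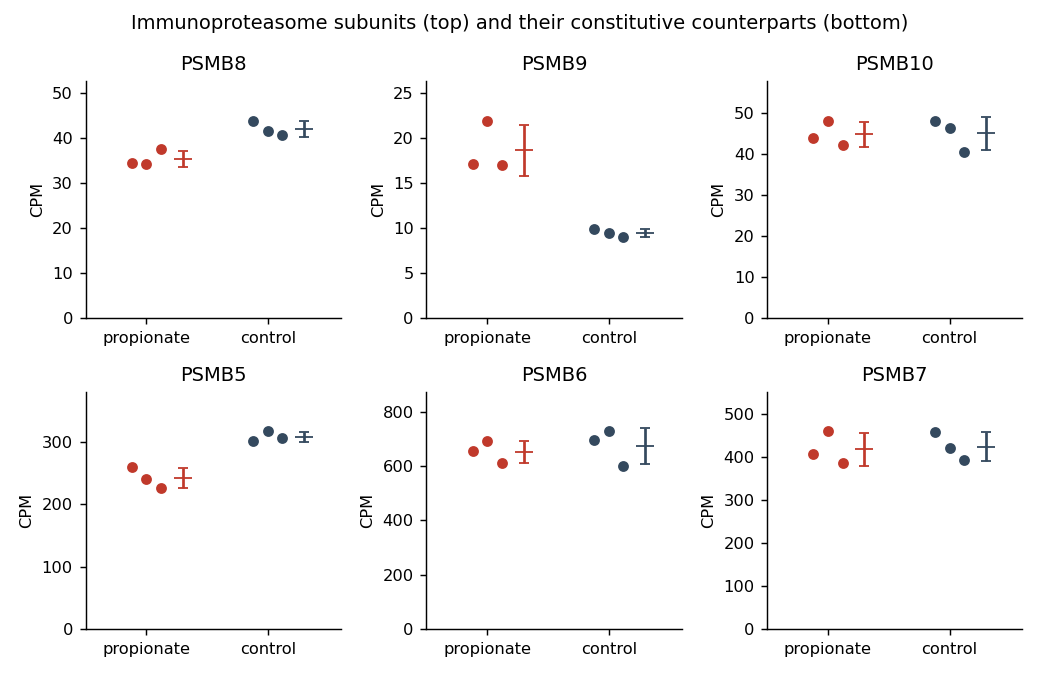
Level in CPM (y axis, linear, from 0) of the inducible proteasome subunits PSMB8, PSMB9 and PSMB10 (top) and of PSMB5, PSMB6 and PSMB7, which they replace (bottom), in every library (points), with propionate left of control and the mean with its SD (n = 3). PSMB9 separates the groups upward (17.0 to 21.9 CPM with propionate against 8.99 to 9.87 CPM in control) and PSMB5 downward.

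Of 19 tested genes that trim peptides, fold heavy chains or assist loading, 1 was higher and 0 were lower. Over all tested genes 17.2% were higher and 17.0% lower. With the replicate block 4 were higher and 1 was lower, where 21.9% of all tested genes were higher and 22.6% lower in that fit. The list's median log2 fold change was 0.03. The called gene was CALR, the chaperone calreticulin of the loading complex, at 1138 ± 53.4 CPM with propionate and 956 ± 73.0 CPM in control (SD, n = 3 each; log2 fold change 0.25, edgeR adjusted p = 0.0183). The call was lost without propionate library 1 or 2 or control library 2 or 3 (log2 fold changes from 0.20 to 0.31 over the 6 omissions) and with the GC trend removed. CANX (calnexin) and PDIA3, which act beside it, had log2 fold changes of 0.05 and 0.10 and were not called. The peptide-trimming aminopeptidase genes ERAP1 and ERAP2 had values of -0.16 and -0.60, and TAPBPL, which encodes a tapasin-like peptide editor, had -0.26 (edgeR adjusted p = 0.328, 0.165 and 0.171), and none was called. TAPBPL passed as lower without control library 3 and with the GC trend removed, and CANX and PDIA3 passed as higher with block and GC removal together.

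Most of the factors that NLRC5 joins at class I promoters were lower. Of 8 tested genes of this complex, 5 were lower and 0 were higher, where 17.0% of tested genes were lower, and the count was 4 or 5 in every alternative fit. The median log2 fold change of the list was -0.53, against -0.01 for all tested genes. ATF1, a CREB/ATF factor, was at 14.4, 15.0 and 17.9 CPM with propionate, against 29.1, 32.0 and 33.6 CPM in control (2.00-fold lower, edgeR adjusted p = 7.02e-06). NFYC, a subunit of the Y box factor NF-Y, was at 94.6, 80.6 and 101 CPM with propionate, against 149, 151 and 160.2 CPM in control (1.67-fold lower, edgeR adjusted p = 5.20e-06). In both genes the groups were far apart. RFX5, the DNA-binding RFX subunit, was 1.65-fold lower, NFYB 1.56-fold lower and CREB1 1.34-fold lower (edgeR adjusted p = 0.00164, 0.000344 and 0.00364), and the CREB1 call was lost with the GC trend removed. RFXAP, RFXANK and NFYA, the remaining subunits, had log2 fold changes of 0.06, 0.15 and 0.21 and were not called. CIITA, the class II counterpart of NLRC5, had 5 reads over the propionate libraries and 5 over the controls and was not tested. Of 14 genes of the class II route, 8 had no read in any library, HLA-DRA among them. Of the 3 tested, 1 was higher and 0 lower, where 17.2% of all tested genes were higher and 17.0% lower. IFI30, a lysosomal thiol reductase, was the higher gene (315 ± 37.8 CPM with propionate and 246 ± 19.2 CPM in control, SD, n = 3 each, edgeR adjusted p = 0.00576), a call lost with the GC trend removed. CD74, the invariant chain, had a log2 fold change of -0.72 (edgeR adjusted p = 0.0988) and passed as lower with the block (log2 fold change -0.75, adjusted p = 0.0462).

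**Figure D4:**
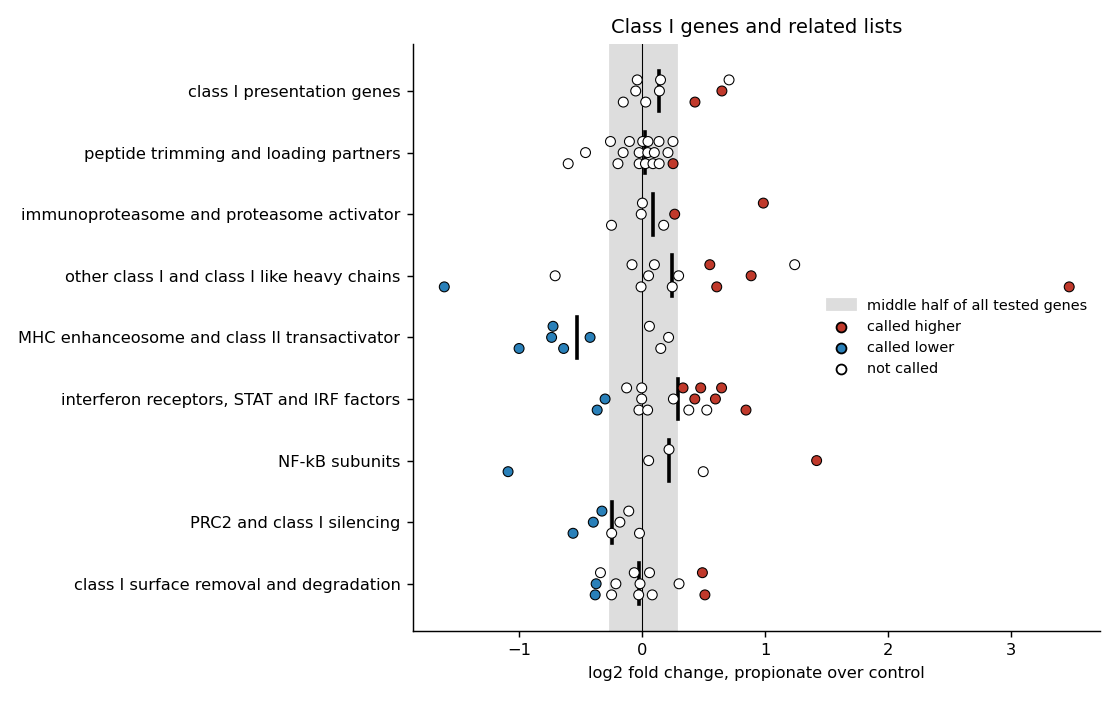
Log2 fold change of propionate over control (x axis) for each tested gene (points) of the class I set and of 8 related lists (rows), red where called higher, blue where called lower and open where not called. Vertical bars are list medians and the grey band is the middle 50% of all tested genes (-0.26 to 0.28). The class I genes lie mostly inside the band, and the MHC enhanceosome list has its median at -0.53.

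Of 16 tested interferon receptor, STAT and IRF genes, 6 were higher and 2 lower, where 17.2% of all tested genes were higher and 17.0% lower. The median log2 fold change of the list was 0.29. IRF1, the interferon regulatory factor that drives NLRC5 and class I genes, had 566, 467 and 431 reads with propionate, against 241, 282 and 246 reads in control (1.79-fold higher, log2 fold change 0.84, SE 0.117, edgeR adjusted p = 1.83e-05). Its groups did not overlap. IRF7 and STAT3 were 1.56-fold and 1.51-fold higher and JAK1 1.26-fold higher (edgeR adjusted p = 0.000263, 8.71e-05 and 0.00419). IFNGR2, a chain of the interferon gamma receptor, was 1.29-fold lower (edgeR adjusted p = 0.00925), a call lost without propionate library 2. Of 5 NF-kB subunit genes, NFKB2 was 2.67-fold higher and NFKB1 2.13-fold lower (edgeR adjusted p = 1.79e-08 and 1.19e-06). With the block RELA also passed as higher (log2 fold change 0.22, adjusted p = 0.00400).

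Of 7 genes of the Polycomb complex PRC2 and other repressors linked to class I silencing in tumours, 3 were lower and 0 higher (17.0% and 17.2% of all tested genes), with a median log2 fold change of -0.25. SETDB1 and EZH2, both histone methyltransferases, were 1.48-fold and 1.32-fold lower and EED, a PRC2 subunit, 1.26-fold lower (edgeR adjusted p = 0.000685, 0.000689 and 0.0173). The EED call was lost without propionate library 2 and with the GC trend removed. Of 13 tested genes linked to the removal, degradation or surface access of class I chains, 2 were higher and 2 lower, shares near those of all tested genes. The list mixes roles, so its counts give no direction for class I at the surface. TMEM127, which with SUSD6 directs class I molecules to lysosomes, was 1.40-fold higher and the ubiquitin ligase gene MARCH9 1.42-fold higher (edgeR adjusted p = 0.000428 and 0.00758), and the MARCH9 call was lost with the GC trend removed. SPPL3, an intramembrane protease, and TMEM129, a ubiquitin ligase of the endoplasmic reticulum, were 1.30-fold lower (edgeR adjusted p = 0.00413 and 0.00718). With the block 4 of these 13 genes were lower, in a fit that called 22.6% of all tested genes lower.

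Of 13 tested heavy chain genes outside the set, 4 were higher (MICA, MICB, PROCR and RAET1G) and 1, HLA-H, was lower, where 17.2% of all tested genes were higher and 17.0% lower. RAET1G passed the filter on low counts only through the propionate libraries, so its call was bound to go with a difference. MICA and MICB, stress-induced ligands of the natural killer receptor NKG2D, were 1.46-fold and 1.52-fold higher. MICA was at 48.6, 49.9 and 47.2 CPM with propionate, against 33.3, 34.0 and 32.2 CPM in control, and MICB at 38.8, 43.9 and 32.6 CPM with propionate, against 27.3, 28.3 and 20.2 CPM in control (edgeR adjusted p = 0.000233 and 0.00181). In neither gene did the groups overlap. RAET1G, another NKG2D ligand, had 74 reads over the propionate libraries and 6 over the controls, which gives a ratio of 11.8 over summed library totals (exact binomial 95% interval 5.17 to 33.2, counting error only). The other tested NKG2D ligand genes did not pass: ULBP1, ULBP2 and RAET1E had 44, 53 and 36 reads over the propionate libraries, against 42, 21 and 56 reads over the controls (edgeR adjusted p = 0.991, 0.0683 and 0.298). PROCR, the endothelial protein C receptor, was 1.85-fold higher (edgeR adjusted p = 0.00205). MICA and MICB are close in sequence, as are RAET1G and other members of its family, so the split of reads among them is uncertain.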

How the data were processed

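The labels' protocols give a Lexogen Quant-Seq kit and 500 ng of RNA as input for each of the 6 LS 174T libraries (3 propionate, 3 control). The authors deposited 1 table of raw counts per library, with gene symbols. Bowtie2, edgeR, hg19 and GRCh37 are named in the submitters' processing notes, with no role. The counter, strand setting and annotation were not given in the sources used here, and the catalogue number beside the kit name may belong to another kit.

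Each table had 25737 lines and 24462 symbols, and counts of the 286 repeated symbols were summed. Each class I gene had reads on 1 line only. Replicates differed beyond sampling noise (chi-square per degree of freedom 6.01 to 8.85). The test was edgeR 4.0.16 in R 4.3.3 by quasi-likelihood over 13605 genes kept by filterByExpr, with TMM factors and no covariate, after a check on simulated data. The deposited counts record no molecular identifiers, so intervals from reads cover counting error only.

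Same-numbered libraries deviated together from their group means (r = 0.238, 0.393 and 0.440 over 9284 genes), each above the limit of 0.1. The main fit ignored this pairing, and the replicate number entered as a block only in alternative fits. The pairing rests on the data alone, since no label gives a shared batch. Alternatives were DESeq2 1.42.0, the replicate block, limma 3.58.1 with voom weights, other scaling factors, filters and thresholds, and each library left out. Transcript GC trends were fitted per library by a spline (4 degrees of freedom, GENCODE 29 transcripts), and the GC fit without the block was added after seeing the data. The genes and lists were chosen with earlier results of these data known. Text names came from a rule: the 9 genes, their partners, up to 4 called genes of each list per direction with the smallest p, and for each called class I gene the 2 others with the highest Pearson r. CREB1, ULBP1, ULBP2, RAET1E, CD74, RELA, RFXAP, RFXANK and NFYA and the marker genes were named after their values were seen. Some genes that the rule selects are not reported here. Promoter sequences are from RefSeq (GRCh38.p14).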

Additional observations from a re-analysis of the deposited data

How the results depend on the processing

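Of 171 values of the 9 class I genes under the alternatives, 158 kept direction and call, 1 call was lost, 5 were gained and 7 changed direction. The number called higher was 3 with the replicate block (21.9% of all tested genes), 3 with the block and the GC trend removed (22.1%), 3 with the GC trend alone removed (17.1%), 1 when a change beyond 1.2-fold was tested (10.1%), and 2 under the other alternatives. The number called lower was 2 with the block and the GC trend removed together (22.0% of all tested genes) and 0 otherwise. Over all tested genes, testing beyond 1.2-fold called 1374 higher and 1098 lower, and an adjusted p under 0.01 called 1424 lower. Testing beyond 1.2-fold also ended the calls of PSMB5, PSME2, CALR, CREB1, IFI30, JAK1, IFNGR2, EZH2, EED, MARCH9, SPPL3 and TMEM129. With the GC trend removed, the log2 fold change changed sign for HLA-B (-0.0128 with the block, -0.0119 without), TAP1 (-0.1019 and -0.1055) and PSMB7 (0.0022 and 0.0029). With upper-quartile factors PSMB7 was 0.0024 and PSMB10 0.0167, and with library totals PSMB10 was 0.0081. Leaving out 1 library at a time gave -0.12 to 0.0048 for HLA-C, -0.0231 to 0.0914 for TAP1, -0.11 to 0.0222 for TAPBP, -0.0255 to 0.11 for CANX, -0.13 to 0.0111 for PSMB6, -0.0942 to 0.0338 for PSMB7, -0.0818 to 0.0383 for PSMB10 and -0.0015 to 0.0419 for the log2 difference of PSMB10 over PSMB7. The cause was not tested. Apart from calls given with their results, adding the replicate block alone changed no call of a gene named from a list. Few reads limit HLA-F, HLA-G and RAET1G.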
